A study of Mus musculus with 10 samples.

Results

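Nmrk2 and 7 other enzymes of nicotinamide adenine dinucleotide (NAD) metabolism were followed in mouse hearts and in cultured mouse macrophages. The 8 genes were Nmrk1, Nmrk2, Nampt, Nmnat1, Nmnat3, Naprt, Nadk and Nnmt, found by symbol among the 55357 genes of each deposited table. Nmrk2 was picked for its strong fall in hearts given interleukin-10 (IL-10), so its heart values are given as a description, without a test. The other 7 were listed for their enzyme roles, with earlier results of these data known, and were tested in both tables. All 8 passed the low-count filter in hearts and 7 did in macrophages, where Nmrk2 had no counts.

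Poly(A) RNA was sequenced from 6 hearts and 4 macrophage cultures. The hearts came from Cd163-/- mice on a C57BL/6 background, which lack the macrophage scavenger receptor CD163, and were labelled saline (n = 3) or IL-10 (n = 3). IL-10, an anti-inflammatory cytokine, was injected under the skin as recombinant mouse protein, at a dose of 50 µg/kg/day on set days between day 0 and day 27. The design text describes transverse aortic constriction, which overloads the left ventricle, in males of 8 weeks, but no label of a single heart states the surgery. Every heart shares the Cd163-/- genotype, and no wild-type or sham-operated heart was analysed here. The macrophages were recruited into the peritoneal cavity with thioglycolate and selected by adherence. There were 2 wild-type and 2 Cd163-/- cultures, all 4 kept for 48 h with the glucocorticoid dexamethasone at 100 nM. Whether replicates are separate animals or cultures is not stated, and p-values then cover only the spread among these libraries, which may be technical.

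The libraries held 13.5 to 14.9 M counts in hearts and 16.7 to 18.6 M in macrophages. Cd163, the targeted gene, had 352 and 205 counts in wild-type and 9 and 14 in knockout macrophages, and 34 to 57 counts in the Cd163-/- hearts. The deleted stretch of Cd163 is not given in the labels, and the heart genotype is taken from them. Cardiac muscle genes were abundant in every heart, while the atrial genes Myl7, Sln and Bmp10 had at most 4, 2 and 0 counts in any heart. Liver markers, read because the RNA protocol names livers, summed to 2.99 to 5.76 CPM in hearts. CPM are counts per M counts of the scaled library.

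NAD carries electrons in respiration and is also consumed by sirtuins, poly(ADP-ribose) polymerases and NAD glycohydrolases, so that cells must rebuild it. Most NAD is rebuilt by salvage. Nampt turns nicotinamide into nicotinamide mononucleotide, Nmrk1 and Nmrk2 make the same mononucleotide by phosphorylating nicotinamide riboside, and Naprt starts from nicotinic acid. Nmnat1 in the nucleus and Nmnat3, which has been placed in mitochondria, complete the dinucleotide. Nadk adds a phosphate to give NADP, and Nnmt methylates nicotinamide and so takes it out of salvage. Nmrk1 is widely expressed, whereas Nmrk2 is known from skeletal and cardiac muscle and rises in stressed and failing hearts.

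The stretches just before the RefSeq starts of Nmrk2 and Nampt are shown because these 2 members had the largest differences between the heart groups, in opposite directions. They are RefSeq sequences of GRCm38.p6, read 5′ to 3′ on the gene's strand, with any bases inside GENCODE exons of the gene left out. The RefSeq start of Nampt lies downstream of the first base of its GENCODE gene, where a further GENCODE transcript starts, so the Nampt stretch is inside the GENCODE gene span but outside its exons. Capitals mark 4 motifs searched on both strands, none of which overlap here: the TATA box (TATAAA), the E-box (CACGTG), the GC box (GGGCGG) and the CCAAT box (CCAAT).
Nmrk2, chr10:81202052-81202287, minus strand: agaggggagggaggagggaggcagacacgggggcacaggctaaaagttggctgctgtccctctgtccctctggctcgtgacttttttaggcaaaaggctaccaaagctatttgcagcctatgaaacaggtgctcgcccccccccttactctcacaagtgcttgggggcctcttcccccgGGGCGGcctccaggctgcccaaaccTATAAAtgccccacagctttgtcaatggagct
Nampt, chr12:32820085-32820334, plus strand: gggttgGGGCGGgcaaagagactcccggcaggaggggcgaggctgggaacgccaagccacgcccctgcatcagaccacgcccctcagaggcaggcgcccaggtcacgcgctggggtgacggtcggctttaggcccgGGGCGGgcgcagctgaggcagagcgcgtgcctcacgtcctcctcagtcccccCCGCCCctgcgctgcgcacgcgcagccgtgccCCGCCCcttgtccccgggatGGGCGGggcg
Of the 8 windows found for 6 of the members, that of Nmrk2 alone held TATAAA, starting 46 bases before the RefSeq start. TATAAA was present in 12.4% of 32851 such windows of 250 bases. The Nampt window held 5 GC boxes, a motif that 32.7% of windows held at least once, and its GC content was 75.6% against a median of 52.4%. The E-box was found in 1 member window, at the downstream of the Nadk starts, and in 6.02% of all windows, and the CCAAT box in 33.8% of all windows. These are matches of letters in short windows and were not tested as binding sites.

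Nmrk2 (ENSMUSG00000004939, chromosome 10, 81198170 to 81202051, GRCm38 in GENCODE M21) had 1100, 1627 and 1987 counts in the 3 saline hearts and 227, 181 and 203 in the 3 IL-10 hearts. The groups were far apart, with the lowest saline heart well above the highest IL-10 heart. The saline hearts also differed more among themselves than the IL-10 hearts did. The mean level was 109 ± 24.9 CPM in the saline group and 14.4 ± 1.20 CPM in the IL-10 group (SD, n = 3 each). The log2 difference of Nmrk2, IL-10 over saline, was -2.92, which ranged from -3.09 to -2.78 when each heart in turn was left out. These are the values by which the gene was picked.

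Nmrk2 shares 270 of its 1854 exon bases (14.6%) with Atcayos, a transcript on the opposite strand, and the library kit does not mark the strand. Atcayos had 224, 221 and 202 counts in the saline group and 437, 300 and 223 in the IL-10 group, so its counts were higher in IL-10 replicates 1 and 2 than in any saline heart, and those of IL-10 replicate 3 lay within the range of the saline hearts. Reads in the shared bases cannot be told apart.

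In bulk hearts, fewer cells of a type and less RNA per cell cannot be told apart. The summed level of 12 cardiomyocyte markers was 43100 to 52300 CPM in the saline group and 37700 to 44200 in the IL-10 group, ranges that overlap. Of those 12, Myl3 (log2 0.51) and Nkx2-5 (0.51) rose and Actc1 (-0.79) fell. Of all 13718 genes tested in hearts, 6.86% rose and 6.7% fell at an adjusted p under 0.05 in edgeR. Nppa, the natriuretic peptide of atria and of stressed ventricles, moved with Nmrk2. It had 11957, 22109 and 21892 counts in the saline group and 7909, 3371 and 5694 in the IL-10 group, without overlap (edgeR quasi-likelihood: log2 -1.70, SE 0.24, adjusted p = 0.000357). It was the 1 gene called of 4 tested among 7 atrial markers, and the other 3 did not pass. The sum of the 7 was 899 to 1630 CPM in the saline group and 266 to 566 in the IL-10 group. Most of that sum was Nppa itself, so it does not describe the other atrial markers. Nmrk2 is also a gene of skeletal muscle, and 16 skeletal muscle markers were read beside it. Their sum was 141 to 192 CPM in the saline group and 126 to 153 in the IL-10 group. Of 7 tested, 4 fell in edgeR, against 6.7% of all genes tested, while DESeq2 and limma-voom each called 3 falls. The 4 in edgeR were Myl1 (log2 -0.53), Casq1 (-0.76), Myoz1 and Tnnt3, the last at 2.24 and 0.210 CPM. In the IL-10 group Tnnt3 was near the level of 3 counts (0.207 to 0.22 CPM per library). It passed the low-count filter only through the saline group and could hardly be called except as a fall. The defining genes Tnnc2, Myh1, Myh2 and Myh4 were at 0 counts in all 6 hearts, and Atp2a1 was at 2 to 10. The part of these other markers in the Nmrk2 values was not tested.

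**Figure D1:**
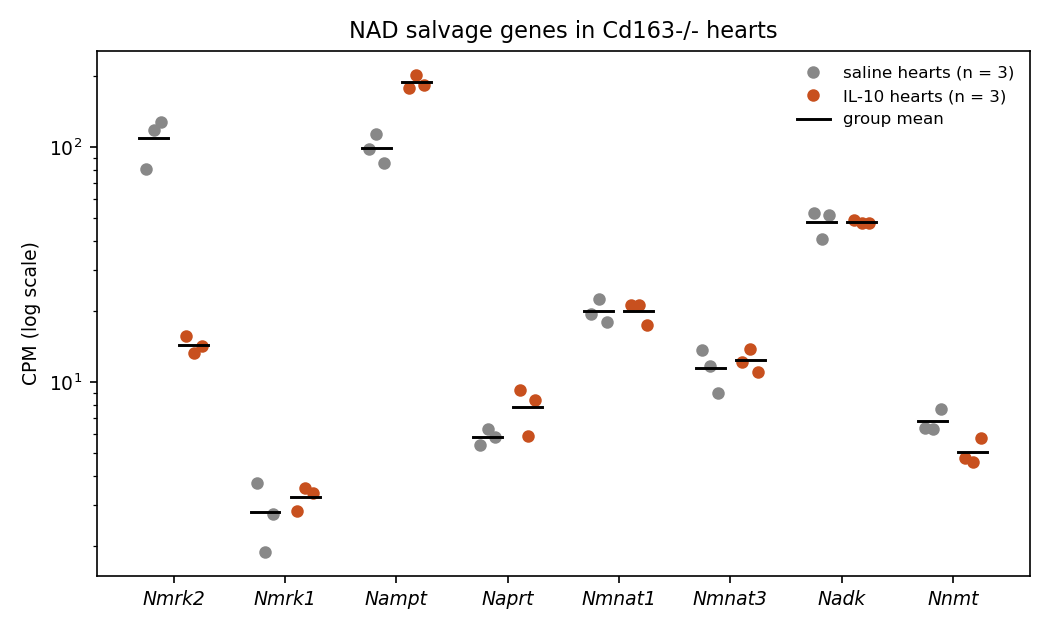
CPM of the 8 genes in each heart on a log axis, saline in grey and IL-10 in orange, with points for libraries and black lines for group means. Nmrk2 lies at 80.5 to 127 CPM in the saline group and 13.3 to 15.7 in the IL-10 group, and Nampt lies higher in all 3 IL-10 hearts.

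Nampt, the rate-limiting enzyme of nicotinamide salvage, moved the other way. Nampt (ENSMUSG00000020572, chromosome 12, 32819545 to 32853349) had 1345, 1552 and 1339 counts in the saline group and 2586, 2769 and 2608 in the IL-10 group. Every IL-10 heart was above every saline heart. The mean rose from 99.1 ± 13.7 to 188 ± 13.2 CPM (SD, n = 3 each). The log2 difference was 0.93, with SE 0.12 and an adjusted p = 0.000157 in edgeR's quasi-likelihood test (Benjamini-Hochberg over all genes tested). The adjusted p stayed between 4.40e-12 and 0.00295 over 15 alternatives, and the log2 fold change between 0.84 and 1.03.

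None of the other 6 tested members passed the test in hearts. Nampt was thus 1 of 7 members that rose, against 6.86% of all 13718 genes tested, and 0 of 7 fell, against 6.7%. At an unadjusted p under 0.05 in edgeR 1 member rose and 1 fell, and DESeq2 and limma-voom each called 1 rise and 0 falls. The median log2 fold change of the 7 was 0.11, and that of all genes tested was -0.01.

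Nmrk1, the other riboside kinase, had 51, 26 and 43 counts in the saline group and 41, 48 and 48 in the IL-10 group, and the groups overlapped. Its level was 2.79 ± 0.919 and 3.24 ± 0.365 CPM (edgeR quasi-likelihood: log2 0.21, SE 0.29, adjusted p = 0.679). The fall of Nmrk2 was not accompanied by a detectable change of Nmrk1, whose counts were low. Naprt, the nicotinic acid enzyme, had 74, 87 and 91 counts against 134, 80 and 119 (edgeR quasi-likelihood: log2 0.42, SE 0.20, adjusted p = 0.188). Naprt shares 277 of its 2344 exon bases (11.8%) with Eef1d on the same strand, and how reads in the shared bases were counted is not known.

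The enzymes that complete NAD did not pass the test. Nmnat1 had 265, 310 and 280 counts in the saline group and 308, 290 and 250 in the IL-10 group (edgeR quasi-likelihood: log2 0.01, SE 0.14, adjusted p = 0.983). Nmnat3 had 187, 160 and 140 against 176, 189 and 157 (log2 0.11, SE 0.17; adjusted p = 0.713 in the same edgeR test). The groups overlapped for each gene.

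Nadk, the cytosolic NAD kinase, had 716, 559 and 800 counts in the saline group and 708, 647 and 675 in the IL-10 group, or 48.1 ± 6.42 and 48.0 ± 0.805 CPM (edgeR quasi-likelihood, log2 -0.01, SE 0.12, adjusted p = 0.981). Nnmt had 87, 87 and 120 counts in the saline group and 69, 62 and 82 in the IL-10 group. The Nnmt groups did not overlap in CPM, at 6.80 ± 0.770 and 5.03 ± 0.647, but the difference did not pass (edgeR quasi-likelihood: log2 -0.44, SE 0.20, adjusted p = 0.162).

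Levels of different genes can be compared only per length, as TPM (transcripts per M transcripts, from GENCODE exon lengths). The length of a gene was that of all its annotated exons merged, 1854 bases for Nmrk2 and 5054 for Nampt. The transcripts in use may be shorter, so the order depends on this choice. In saline hearts Nmrk2 stood first at 116 ± 30.0 TPM, followed by Nampt at 38.6 ± 4.36, Nadk at 25.4 ± 3.76, Nmnat1 at 13.0 ± 1.29 and Nnmt at 8.54 ± 1.32. Naprt (4.94 ± 0.444) and Nmnat3 (4.49 ± 0.773) overlapped, and Nmrk1 was last at 1.49 ± 0.473. In IL-10 hearts Nampt stood first at 69.0 ± 2.46 TPM and Nadk second at 23.8 ± 2.59. Nmrk2 at 14.5 ± 2.56 and Nmnat1 at 12.3 ± 1.79 TPM overlapped. Naprt, Nnmt and Nmnat3 followed at 6.29 ± 1.92, 5.93 ± 0.977 and 4.57 ± 0.431 with overlapping ranges, and Nmrk1 was again last at 1.62 ± 0.0698.

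The makeup of the salvage transcripts thus differed between the heart groups, which is a description since it rests on Nmrk2. Nmrk2 made up 46.5%, 56.0% and 59.6% of the summed TPM of the 8 genes in the saline hearts and 11.4%, 9.41% and 10.6% in the IL-10 hearts. Nampt made up 18.4% ± 3.23 in the saline group and 50.1% ± 2.53 in the IL-10 group (SD, n = 3 each). The ratio of Nmrk2 to Nampt TPM was 2.23, 2.86 and 4.05 in saline hearts and 0.239, 0.178 and 0.212 in IL-10 hearts. Nmrk2 was thus the more abundant of this pair per length in every saline heart and the less abundant in every IL-10 heart. Without Nmrk2 the other 7 summed to 95.7 to 97.6 TPM in the saline group and 116 to 133 in the IL-10 group. That sum includes Nampt, at 35.0 to 43.4 TPM in the saline group and 67.3 to 71.8 in the IL-10 group. Nampt was the only 1 of the 7 that passed the test, so the sum does not describe the others.

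**Figure D2:**
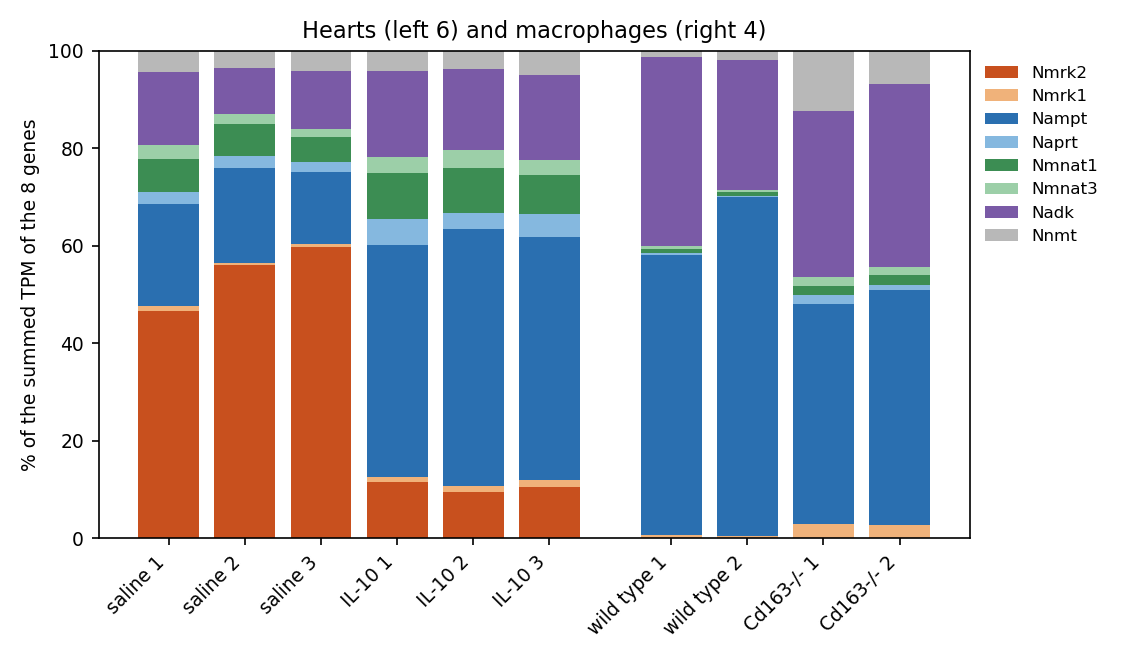
Share of each gene in the summed TPM of the 8 genes, in percent, as 1 stacked bar per library, with the 6 hearts on the left and the 4 macrophage cultures on the right. Nmrk2 takes 46.5% to 59.6% of the bar in saline hearts, 9.41% to 11.4% in IL-10 hearts and none in macrophages, where Nampt and Nadk fill most of it.

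Genes with the pattern most like that of Nmrk2 over the 6 hearts were sought among 11886 named protein-coding genes that averaged 1 CPM or more. Likeness was the root mean square difference of mean-centred log2 CPM. The 6 closest were Ndc80 (0.26), Zwilch (0.29), Ccnb2 (0.30), Mki67 (0.30), Ccna2 (0.34) and Hmmr (0.34). Ndc80 and Zwilch encode kinetochore proteins, Ccnb2 and Ccna2 cyclins of dividing cells, Mki67 the proliferation antigen Ki-67 and Hmmr a hyaluronan receptor of the spindle. Among them, Mki67 went from 10.6 ± 1.62 CPM in the saline group to 1.60 ± 0.328 CPM in the IL-10 group (n = 3 each), and Ndc80 from 2.16 ± 0.172 to 0.188 ± 0.0765 CPM. Among the genes closest to Nampt were Mme, a membrane peptidase (0.06), and Ackr3, a chemokine receptor (0.07). Ackr3 was at 91.0 ± 12.0 CPM in the saline group and 178 ± 9.32 CPM in the IL-10 group. Ndc80, Zwilch, Ccnb2 and Hmmr averaged 1 CPM only through the saline group. In the IL-10 group Ccnb2 was at 0.447 ± 0.151 CPM and Hmmr at 0.494 ± 0.249 CPM. Ndc80 and Zwilch had IL-10 means near the level of 3 counts (0.207 to 0.22 CPM per library), Zwilch at 0.212 ± 0.0681 CPM. So low, the value depends on the prior count, and the place of these genes in the order is uncertain. Likeness to Nmrk2 was ranked on the same heart values by which Nmrk2 was picked. All genes named here are alike in pattern over 6 samples that share 2 treatments, and no test was made of the likeness.

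Around the salvage enzymes, 60 genes of NAD synthesis, use and transport and of kynurenine metabolism were listed. In hearts 46 of them could be tested, and 3 rose and 3 fell. That is 6 of 46 against 13.6% of all genes tested. Their median log2 fold change was -0.04, against -0.01 over all genes. Without saline replicate 1, saline replicate 3 or IL-10 replicate 1 the count was 3 in each case.

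Among the other genes of NAD and NADP synthesis and of kynurenine metabolism, 2 of 7 tested rose and 0 fell. Of all genes tested, 6.86% rose and 6.7% fell. In this list 4 rose and 0 fell at an unadjusted p under 0.05 in edgeR, and 2 and 0 in both DESeq2 and limma-voom. Nadk2, the mitochondrial NAD kinase, had 413, 415 and 402 counts in the saline group and 647, 657 and 684 in the IL-10 group. It rose from 28.7 ± 2.59 to 47.0 ± 2.02 CPM (edgeR quasi-likelihood: log2 0.71, SE 0.11, adjusted p = 0.00074), with no overlap. The cytosolic kinase Nadk did not pass in the same hearts, as given above, and the difference between the 2 kinases was not tested. Kyat3, a kynurenine aminotransferase, rose by 0.55 (SE 0.13; edgeR quasi-likelihood, adjusted p = 0.00879). The calls of Nampt, Nadk2 and Kyat3 held in all 15 alternatives. Nadsyn1, which amidates the nicotinic acid dinucleotide, did not pass (log2 -0.52; edgeR quasi-likelihood, adjusted p = 0.245). Qprt, a late enzyme of the tryptophan route to NAD, had 1 to 4 counts per heart and Nmnat2, the neuronal adenylyltransferase, 4 to 14, both below the filter. Nnt, the mitochondrial transhydrogenase that makes NADPH, was at only 0.636 ± 0.178 and 0.774 ± 0.261 CPM.

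Of the genes that use NAD, most did not pass the test in hearts, where 6.86% of all genes tested rose and 6.7% fell. Among 7 sirtuins, Sirt7 fell (edgeR quasi-likelihood: log2 -0.65, SE 0.19, adjusted p = 0.0346) and 0 rose. DESeq2 did not call it, nor did edgeR on leaving out any 1 of saline replicates 1 and 3 and IL-10 replicates 2 and 3 (adjusted p 0.0593 to 0.156). Sirt1 (log2 0.28) and the mitochondrial deacetylase Sirt3 (0.16) did not pass, at adjusted p = 0.289 and 0.591 in edgeR. Of 14 genes of the PARP family 0 were called by edgeR, DESeq2 or limma-voom, and at an unadjusted p under 0.05 in edgeR 2 were higher and 2 lower. Parp1, the main polymerase, had a log2 difference of 0.06 (SE 0.12; edgeR quasi-likelihood, adjusted p = 0.789). The glycohydrolase gene Cd38 had 377, 299 and 380 counts in the saline group and 292, 230 and 303 in the IL-10 group (edgeR quasi-likelihood: log2 -0.34, SE 0.13, adjusted p = 0.11), with no overlap in CPM, and Bst1, its paralog, was at 3.94 ± 1.68 and 3.07 ± 1.34 CPM.

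Among 16 tested genes that handle NAD precursors and metabolites, 1 rose and 2 fell, against 6.86% and 6.7% of all genes tested. Slc25a51, the mitochondrial NAD carrier, rose from 59.6 ± 4.10 to 77.1 ± 5.72 CPM (edgeR quasi-likelihood: log2 0.37, SE 0.11, adjusted p = 0.0306). That call was lost with upper-quartile scaling, with library size alone, with the replicate block, and on leaving out any 1 of saline replicates 1 and 2 and IL-10 replicates 1 and 2 (adjusted p 0.0551 to 0.134). The surface enzymes Nt5e, the 5′-nucleotidase CD73 that can release nicotinamide riboside, and Enpp1, a nucleotide pyrophosphatase, fell by 0.58 and 0.78 on the log2 scale (edgeR quasi-likelihood, adjusted p = 0.0188 and 0.0154). Enpp1 was not called without saline replicate 3 or IL-10 replicate 1, nor Nt5e without saline replicate 1, saline replicate 3 or IL-10 replicate 1 (adjusted p 0.0649 to 0.106).

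Lists next to these enzymes were read for context in hearts, where 6.86% of all genes tested rose and 6.7% fell. Of 12 tested genes of the methyl donor cycle that feeds Nnmt, 1 rose, Mat2b (log2 0.40), and 0 fell (3 and 0 at an unadjusted p under 0.05 in edgeR, and 1 and 0 in DESeq2 and limma-voom). Of 14 AMPK and PPAR genes, which include known activators of Nmrk2 transcription, 2 rose and 0 fell (4 and 1 at an unadjusted p under 0.05 in edgeR, and 2 and 0 in DESeq2 and limma-voom). These were Rxra, the retinoid X receptor alpha (log2 0.62; edgeR quasi-likelihood, adjusted p = 0.00172), and Prkag1, an AMPK subunit (0.43; adjusted p = 0.0233). Ppara (log2 0.43) and Prkaa2 (0.25), the muscle AMPK catalytic subunit, did not pass, at adjusted p = 0.112 and 0.161 in edgeR. Nmrk2 protein was first described as a partner of muscle integrin. Of 11 tested integrin and laminin genes 2 fell, Itga7 (log2 -0.35; edgeR adjusted p = 0.049) and Lama4 (-0.46; adjusted p = 0.0147), and 0 rose (4 falls and 0 rises at an unadjusted p under 0.05 in edgeR, 3 and 0 in DESeq2, and 2 and 0 in limma-voom). Itgb1 was at -0.32 (edgeR adjusted p = 0.0995) and passed in DESeq2 (adjusted p = 0.035) and with library size alone (0.0422). Itga7 was not called in 8 of 15 alternatives, among them each removal of a heart except saline replicate 2, at adjusted p up to 0.209. Mat2b, Prkag1 and Lama4 were each not called without 2 or more single hearts.

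**Figure D3:**
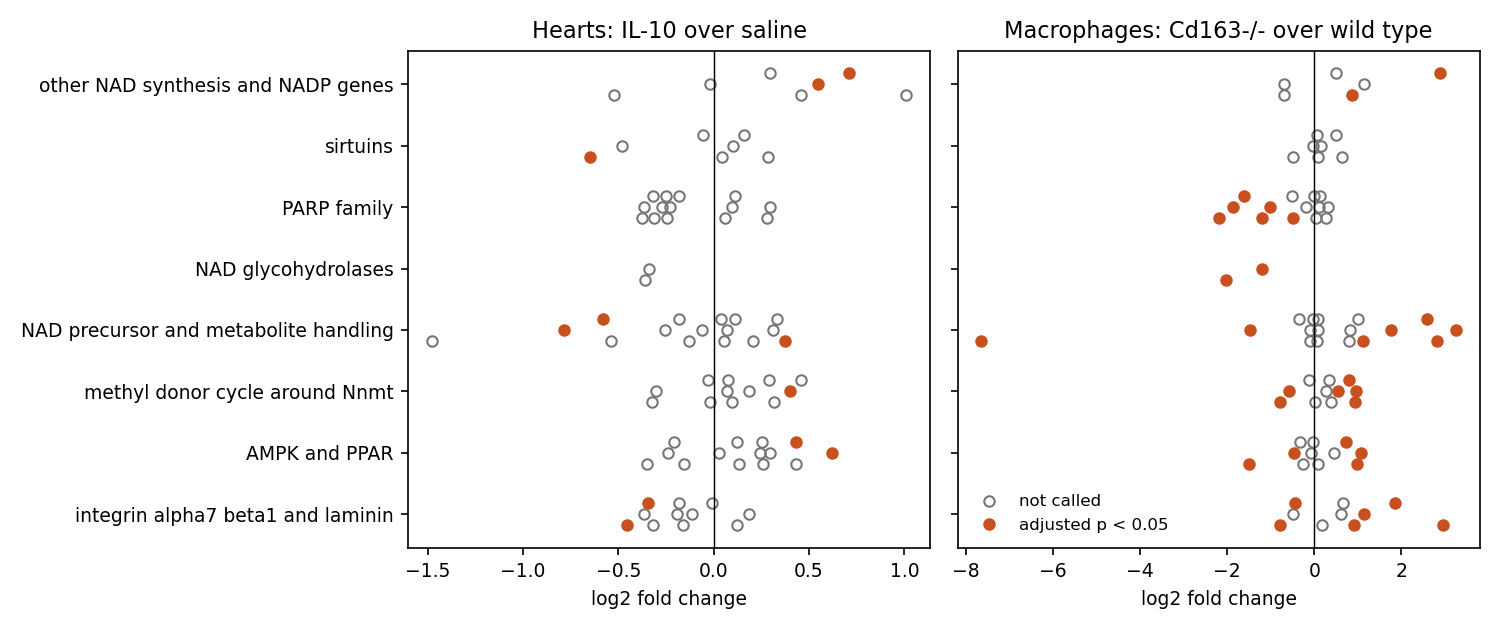
Log2 fold change of every tested gene of the 8 lists around the salvage enzymes, in hearts (left, IL-10 over saline) and macrophages (right, Cd163-/- over wild type), where filled points have an adjusted p under 0.05 and the scales of the panels differ. The PARP family has 0 filled points in hearts and 6 in macrophages, all of them below 0.

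Macrophages showed another profile. Nmrk2 had 0 counts in all 4 cultures, or 0 of 70.5 M counts, which allows up to 0.0426 CPM over the cultures and 0.161 to 0.179 CPM in a single one, for counting error only. Per length, Nampt stood first, at 594 ± 126 TPM in wild-type and 169 ± 15.4 TPM in knockout cultures, and Nadk second, at 302 ± 55.3 and 130 ± 14.2 TPM (SD, n = 2 each). Nnmt followed in both genotypes, at 14.1 ± 5.02 and 34.4 ± 12.2 TPM. Nmnat1 (7.99 ± 0.225 TPM) came next in wild type and Nmrk1 (10.0 ± 0.155 TPM) in the knockout, with every other member under these. Nnmt made up 1.50% ± 0.419 of the summed TPM in wild-type and 9.59% ± 3.82 in knockout cultures. The members summed to 876 and 983 TPM in wild-type cultures and 351 and 374 TPM in Cd163-/- cultures.

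The Cd163-/- cultures had lower Nampt and Nadk than wild type. Nampt had 14432 and 18004 counts in wild-type and 4579 and 4777 in Cd163-/- macrophages, or 1001 ± 203 against 247 ± 26.4 CPM (SD, n = 2 each). The knockout cultures were both far below the wild-type ones (edgeR quasi-likelihood: log2 -2.02, SE 0.20, adjusted p = 0.00245). Nadk had 7222 and 5128 counts against 2571 and 2755, or 377 ± 72.9 against 141 ± 17.7 CPM. Its genotypes did not overlap either (edgeR quasi-likelihood: log2 -1.43, SE 0.19, adjusted p = 0.00522), although the call was lost without knockout replicate 1 (adjusted p = 0.0697).

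Nmrk1, the only riboside kinase with counts in these cells, was higher in the knockout. It had 104 and 78 counts in wild-type and 209 and 196 in Cd163-/- cultures, or 5.57 ± 0.864 and 10.7 ± 0.337 CPM (edgeR quasi-likelihood: log2 0.93, SE 0.20, adjusted p = 0.0218). This rise was not called without wild-type replicate 2 (adjusted p = 0.0598), knockout replicate 1 (0.112) or knockout replicate 2 (0.107). In all, 1 of 7 tested members rose, against 13.1% of 13861 genes tested, and 2 of 7 fell, against 13.3%. Without knockout replicate 1 only the fall of Nampt was called.

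**Figure D4:**
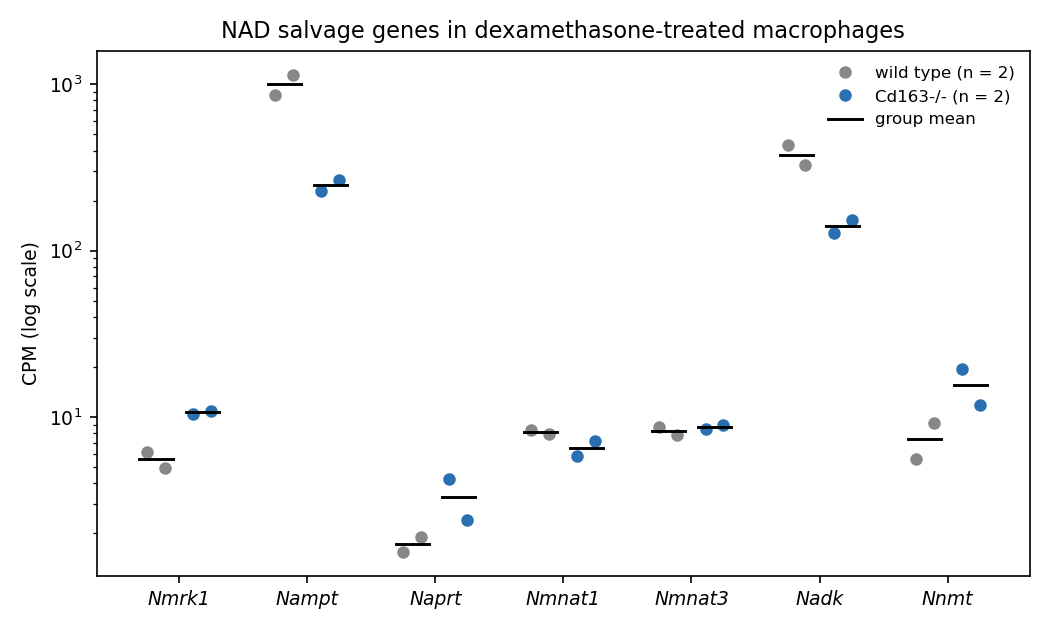
CPM of the 7 genes with counts in each macrophage culture on a log axis, wild type in grey and Cd163-/- in blue, with points for libraries and black lines for group means. Nampt and Nadk are lower and Nmrk1 higher in both knockout cultures, and Nmrk2, at 0 counts, is not drawn.

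Nnmt had 94 and 145 counts in wild-type and 388 and 213 in knockout cultures, or 7.40 ± 2.57 and 15.6 ± 5.30 CPM. The cultures did not overlap, but the difference did not pass (edgeR quasi-likelihood: log2 1.08, SE 0.33, adjusted p = 0.0599). It passed in DESeq2 (adjusted p = 0.023), with no low-count filter (5.29e-06), under upper-quartile scaling (0.0471) or library size alone (0.0439), and without wild-type replicate 2 (0.0165). Naprt had 26 and 30 counts against 85 and 43 (edgeR quasi-likelihood: log2 0.94, SE 0.38, adjusted p = 0.116), and passed with no low-count filter (adjusted p = 0.0318). Nmnat1 (log2 -0.32, SE 0.20) and Nmnat3 (0.08, SE 0.18) did not pass, at adjusted p = 0.287 and 0.773 in edgeR. The genotypes did not overlap for Naprt and Nmnat1 either, although neither gene was called. With 2 cultures per genotype, a lack of overlap can thus occur without a call and says little by itself.

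Genes of other cells moved with the genotype in these cultures. The summed level of 10 macrophage markers was 25700 to 31300 CPM in wild-type and 25500 to 26800 in Cd163-/- cultures. The 10 mesothelial markers summed to 111 to 178 CPM in wild-type and 353 to 461 in knockout cultures, with 7 rises and 0 falls, and no marker of the list was at 0 throughout. The 11 fibroblast markers summed to 1580 to 2280 and 3240 to 3750 CPM, with 6 of 8 tested genes higher and 1 lower. Of all 13861 genes tested, 13.1% rose and 13.3% fell. Smooth muscle and pericyte markers summed to 174 to 223 and 412 to 699 CPM. The part of these cells in the values of Nnmt, Nmrk1, Naprt, Nampt and Nadk was not tested.

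Several genes whose products consume NAD were also lower in the knockout. Cd38, the main NAD glycohydrolase of macrophages, had 15780 and 25462 counts in wild-type and 5446 and 6315 in Cd163-/- cultures, or 1278 ± 481 and 311 ± 56.2 CPM (edgeR quasi-likelihood: log2 -2.04, SE 0.30, adjusted p = 0.00757). Bst1 had 2512 and 4233 counts against 1653 and 1777 (log2 -1.21; edgeR quasi-likelihood, adjusted p = 0.0284). Neither gene's genotypes overlapped, and both calls were lost without either knockout culture, at adjusted p from 0.0512 to 0.179. Of 14 PARP genes 6 fell and 0 rose (6 and 1 at an unadjusted p under 0.05 in edgeR, and 6 and 0 in DESeq2 and limma-voom), where 13.3% of all genes tested fell and 13.1% rose. Parp14 went from 392 ± 85.7 to 85.5 ± 3.82 CPM, and the others were Parp8 (log2 -1.86), Parp9 (-1.61), Parp10 (-1.20), Parp12 (-1.01) and Parp3 (-0.48). Parp9, Parp10, Parp12 and Parp14 are known as interferon-inducible members. The calls of Parp14 and Parp8 held in all 14 alternatives, while those of Parp9, Parp10, Parp12 and Parp3 were lost without either knockout culture. Parp3 was also not called without wild-type replicate 2. With library size alone and with the replicate block, edgeR did not call Parp3 (adjusted p = 0.126 and 0.0702) or Parp12 (0.0531 and 0.054). Under upper-quartile scaling Parp3 was not called either (edgeR adjusted p = 0.0724). Parp1 was at 78.1 ± 2.68 and 97.6 ± 2.32 CPM (log2 0.32; edgeR quasi-likelihood, adjusted p = 0.077) and passed under upper-quartile scaling (0.0334) and library size alone (0.0222). Of 7 sirtuins 0 were called by edgeR, DESeq2 or limma-voom, with 1 lower at an unadjusted p under 0.05 in edgeR.

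Over the 60 NAD genes other than the members, 46 were tested in macrophages. Of those called, Kynu, Enpp3, Nt5e and Aox3 passed the low-count filter only through the knockout cultures, and Hcar2 only through the wild-type ones. Aox3 had 2 and 3 counts in wild type and 21 and 16 in the knockout. Such genes could hardly be called in the other direction, so the filter set part of the count. Of the 46, 7 rose and 10 fell, which is 17 of 46 against 26.4% of all genes tested. The median log2 fold change was 0.06 against 0.01 over all genes, and without either knockout culture the count was 6. Hcar2, the receptor for nicotinic acid, had 824 and 1272 counts in wild-type and 5 and 7 in knockout cultures (edgeR quasi-likelihood: log2 -7.65, SE 0.40, adjusted p = 0.000479), the largest difference among the tested genes of these lists. Pnp, the purine nucleoside phosphorylase that can cleave nicotinamide riboside, fell by 1.48 on the log2 scale (edgeR quasi-likelihood, adjusted p = 0.0152), a call lost without knockout replicate 2 (0.0688). The surface enzymes Enpp1 (log2 1.77), Enpp3 (3.26) and Nt5e (2.83) and the lysosomal nucleoside transporter Slc29a3 (1.12) rose, at edgeR adjusted p from 0.00089 to 0.0125. Of Enpp3 the wild-type cultures held only 3 and 2 counts and the knockout cultures 27 and 31. Nt5e had only 4 and 4 counts in wild type and 45 and 24 in the knockout, and its call was lost without knockout replicate 1 (adjusted p = 0.102). The Enpp3 call was lost without either knockout culture, at adjusted p = 0.0598 and 0.0616. Nadk2 rose (log2 0.87; edgeR quasi-likelihood, adjusted p = 0.0464), a call that was lost without wild-type replicate 1 or either knockout culture, at adjusted p from 0.0962 to 0.187. Kynu, the kynureninase, had 3 counts in the wild-type cultures and 28 in the knockout cultures, a ratio of 9.03 with a 95% counting interval of 2.79 to 46.4. It was not called in DESeq2 or without wild-type replicate 1, wild-type replicate 2 or knockout replicate 2, at adjusted p from 0.0606 to 0.108.

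The neighbouring lists went both ways in macrophages, where 13.1% of all genes tested rose and 13.3% fell. Of 11 tested methyl donor genes 4 rose and 2 fell. Gamt (log2 0.96) and Ahcyl2 (0.54) were among the rises and Mtrr (-0.59) among the falls. Mtr, the methionine synthase (log2 0.93), and Adk, the adenosine kinase (0.80), rose, while Mat2a, which makes the methyl donor used by Nnmt, fell by 0.80 on the log2 scale (edgeR quasi-likelihood, adjusted p = 0.00954, 0.0138 and 0.00808). Of 11 AMPK and PPAR genes 3 rose and 2 fell, with Prkag2 (log2 0.99), Pparg (1.07) and Rxra (0.73) higher and Ppargc1b (-1.50) and Srf (-0.47) lower. Of 10 integrin and laminin genes 4 rose and 2 fell. The rises were Itga6 (log2 1.87, edgeR quasi-likelihood, adjusted p = 0.00118), Lamc1 (0.90, adjusted p = 0.0058 in the same test), Lamb1 (1.14) and Lama2 (2.96). The falls were Itga5 (-0.79) and Itgb1bp1 (-0.44). Lama2 had only 1 and 6 counts in wild type and 36 and 30 in the knockout. It passed the low-count filter only through the knockout cultures. Itga7 (log2 0.19) and Itgb1 (-0.48) did not pass in edgeR, at adjusted p = 0.541 and 0.0858, while Itgb1 passed in DESeq2 (0.0172) and with no low-count filter (0.0328). All of the calls named here for these 3 lists except that of Itga6 were lost without 1 or both knockout cultures.

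The heart comparison was one of treatment and the macrophage comparison one of genotype, and no test set them against each other. Nampt was higher with IL-10 in Cd163-/- hearts (log2 0.93) and lower in Cd163-/- macrophages than in wild-type ones (log2 -2.02). Nmrk2, first per length in saline hearts, had no counts in macrophages.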

How the data were processed

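The deposited files were 2 tables of raw counts per gene, which the authors made with HISAT2 (version 2.2.1) and featureCounts (version not given), per the submitters' processing notes. The labels list both GRCm39 and mm10, and which of them the counts used could not be settled; gene positions and exon lengths are from GENCODE M21 on GRCm38, which matched 52081 of 55357 identifiers. Per the labels' protocols, poly(A) libraries were made with the NEBNext Ultra RNA kit, which does not mark the strand. No column was left without a sample (0 in each table).

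The heart and macrophage tables were fitted separately (R 4.3.3), after a low-count filter with filterByExpr of edgeR 4.0.16 (minimum count 10, minimum total 15) and TMM scaling. The edgeR quasi-likelihood p of every tested gene entered 1 Benjamini-Hochberg adjustment per table, with calls at an adjusted p under 0.05. The SE was obtained as |log2 fold change| over the root of the F statistic. CPM use TMM-scaled library sizes and TPM all genes with a GENCODE length. Intervals cover counting error only.

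The members and gene lists were chosen with earlier results of these data known. Named genes were all members, up to 6 called genes per list with the smallest p, a fixed set of further genes, and the genes most like Nmrk2 and Nampt (log2 CPM with a prior count of 2). A gene that this rule names is not reported here. On simulated counts the procedure recovered 78% of 2-fold and 97% of 4-fold changes with 3 false calls in the heart design (13718 genes, 200 changed) and 64% and 92% with 11 in the macrophage design (13861 genes). Alternatives used DESeq2 1.42.0, limma 3.58.1 (voom), other scalings and filters, the replicate number as a block, no mitochondrial genes, and each library left out.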

Additional observations from a re-analysis of the deposited data

How the results depend on the processing

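With other scalings, filters and tests, 1542 to 2248 genes were called in hearts (main 1860) and 3450 to 5156 in macrophages (main 3663). Leaving out 1 heart gave 897 (without IL-10 replicate 2) to 1968 genes, and leaving out 1 macrophage culture gave 734 (without knockout replicate 1) to 3811, a fit that lends the remaining single culture the spread of the other genotype. For the NAD genes other than members, leaving out 1 library gave 3 to 8 calls in hearts (main 6) and 6 to 18 in macrophages (main 17), and the other alternatives, the replicate block included, 5 to 8 and 15 to 23. Among the members, 1 of 7 was called in hearts in every alternative. In macrophages 3 were called, 4 with upper-quartile scaling, library size alone or DESeq2, 5 with no low-count filter, and 1 to 3 with 1 culture left out. The share of rises among calls was 50.6% in hearts, but 39.0% with upper-quartile scaling and 35.6% with library size alone. In macrophages it was 49.6%, then 62.2% and 68.6%, where the median of all genes moved from 0.01 to 0.13 and 0.19 on the log2 scale. No called gene of the lists changed direction.

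The replicate numbers showed no sign of pairing in hearts, where deviations of same-numbered hearts correlated at -0.18, 0.04 and 0.00. In macrophages the correlation was -0.11 for same-numbered and 0.11 for other-numbered cultures. With 2 cultures per genotype these 2 values are mirror images, so they cannot decide whether cultures were paired. With the replicate block 1523 genes were called in hearts and 2656 in macrophages, with 1 and 3 members and 5 and 15 other NAD genes. In a crossed replicate block, added after the data were seen, 4595 genes, 4 members and 18 other NAD genes were called in macrophages. Of 12 calls in the heart lists 4 held in all 15 alternatives, and of 37 in macrophages 7 held in all 14. At this depth, Nmrk2 levels under 0.0426 CPM over the 4 macrophage cultures were not detectable.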
